A study of Mus musculus with 2 samples.

Results

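Gja1, Gja4, Gja5, Bmx and Fbln5 were followed through the cells of mouse mammary tumors sorted for endothelium. These 5 of the 33696 counted genes were chosen by name, as 3 connexins of vessel walls and a pair of genes used as arterial markers, with no threshold on their values. The study asked how endothelial cells differ between PyMT-M tumors, which are rich in macrophages and are named High-MAC, and PyMT-N tumors, which are not and are named Low-MAC. Both are cell lines of the MMTV-PyMT model, in which a viral promoter active in mammary epithelium drives the polyoma middle T oncogene, and both were grown in the mammary fat pad of female C57BL/6 mice. Recipients were 6 to 8 weeks old when the lines were transplanted, and neither group carried a treatment. From each line, 3 tumors were dissociated, depleted of CD45+ and Ter119+ cells, sorted for CD31+CD144+ cells and pooled into 1 droplet-based library, so that a group is 1 library with no replicate and no difference between the groups could be tested.

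Connexins assemble into gap junctions, the channels through which adjoining cells pass ions and small molecules. Gja1 (ENSMUSG00000050953) encodes the most widely expressed connexin, which endothelial, mural and epithelial cells all use, whereas Gja4 (ENSMUSG00000050234) and Gja5 (ENSMUSG00000057123) encode connexins that endothelium uses mainly in arteries, with Gja4 also known in lymphatic valves. Bmx (ENSMUSG00000031377) encodes a Tec-family tyrosine kinase found in the endothelium of large arteries and in endocardium, and Fbln5 (ENSMUSG00000021186) encodes a secreted glycoprotein needed to assemble elastic fibers.

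The promoters of Gja4 and Gja5 are shown because these 2 connexins were found in the same cells. The 250 bases before the start of each gene are printed 5′ to 3′ on the strand of the gene, from RefSeq on GRCm38.p6, at chr4:127314040-127314289 on the minus strand for Gja4 and at chr3:97032152-97032401 on the plus strand for Gja5. The capitals mark the longest run of bases that the windows of both genes share on either strand.
Gja4: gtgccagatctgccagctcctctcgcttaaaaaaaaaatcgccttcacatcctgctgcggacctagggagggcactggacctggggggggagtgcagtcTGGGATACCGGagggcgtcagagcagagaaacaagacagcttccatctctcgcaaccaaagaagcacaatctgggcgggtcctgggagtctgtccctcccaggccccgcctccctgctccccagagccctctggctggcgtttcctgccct
Gja5: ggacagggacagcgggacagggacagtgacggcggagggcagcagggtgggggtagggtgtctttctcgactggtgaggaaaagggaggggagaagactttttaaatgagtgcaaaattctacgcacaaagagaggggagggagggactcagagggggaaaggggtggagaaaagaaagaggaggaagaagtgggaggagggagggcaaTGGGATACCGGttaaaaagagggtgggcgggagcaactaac
This run, TGGGATACCGG, has 11 bases and lies 151 to 141 bases before the start of Gja4 and 41 to 31 bases before that of Gja5. Among all 32851 promoter windows of 300 bases (250 before and 50 after the start), 4 held it on either strand, or 0.0122%. The windows of Gja4 and Gja5 are among these 4, because the run was defined as shared by both. The other 13 pairs of windows of different members shared runs of 8 to 12 bases, so that a shared run of this length was not particular to Gja4 and Gja5. The run was found by searching these windows and no factor was assigned to it.

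PyMT-M held 7821 cell barcodes with 141067264 unique molecular identifiers (UMIs, each standing for 1 captured transcript), and PyMT-N held 6974 barcodes with 116150425 UMIs. Barcodes with at least 200 genes and at most 10% mitochondrial UMIs numbered 6719 and 5607, and 20 barcode sequences occurred in both libraries. Blood endothelial cells (at least 5 UMIs of Pecam1, Flt1, Emcn and Kdr together and at most 1 of Krt8, Krt18 and Rhox5) numbered 589 in PyMT-M and 1069 in PyMT-N. Lymphatic cells (at least 3 UMIs of Prox1, Mmrn1 and Reln) numbered 20 and 207, fibroblasts (Col3a1 of at least 3000 UMIs per 1000000) 45 and 54, and tumor cells (at least 3 UMIs of Krt8, Krt18 and Rhox5 and none of Pecam1 or Flt1) 4890 and 3297. Tumor cells were thus the largest class in both libraries in spite of the sort. Blood endothelial cells of PyMT-M were shallower, with a median of 5202 UMIs against 12661 in PyMT-N, and 107 against 7 of them had fewer than 3000 UMIs.

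The labels of the endothelial, lymphatic and fibroblast classes held on markers that the class rules did not use. All 8 of 8 endothelial markers were seen in at least 25% of blood endothelial cells in each library. So were all 4 lymphatic markers in lymphatic cells and all 5 fibroblast markers in fibroblasts. Some also passed 25% in another class, and not all were at lower levels there. Cldn5 was higher in lymphatic than in blood endothelial cells, at 1663 against 536 UMIs per 1000000 in PyMT-M and 1731 against 744 in PyMT-N. In PyMT-M, Tek and Ecscr were slightly higher in lymphatic cells too, and Pdpn was higher in fibroblasts than in lymphatic cells, at 356 against 191. Examples at lower levels than in their own class are Eng (72.2%), Egfl7 (51.3%) and Ecscr (42.2%) in PyMT-M tumor cells. In PyMT-N, Flt4 was seen in 64.8% of blood endothelial cells and Pdpn in 71.85% of tumor cells. The tumor class had 6 epithelial markers (Epcam, Krt7, Krt19, Cldn3, Cldn4 and Krt14) near 0, with a summed level of 3.597 UMIs per 1000000 (CPM) for PyMT-M and 1.725 for PyMT-N, and with Krt19 and Cldn3 at 0 in the former, so that "tumor" stands here for cells with Krt8, Krt18 or Rhox5 and not for cells with a full epithelial profile. It also held mural markers, with a summed level of 265.4 CPM in PyMT-M, where Acta2 was seen in 75.2% of cells, and 321.5 CPM in PyMT-N, where Pdgfrb was seen in 95.6%. Its 5 fibroblast markers summed to 52.6 and 222.9 CPM. The part of what these markers show in the levels of Gja1 and Fbln5 in this class was not tested. Markers of other cell types were also counted in the blood endothelial cells. The summed level of 10 mural markers was 296.8 CPM in the PyMT-M cells, with all 10 seen, and 274.7 CPM in the PyMT-N cells, with Des at 0. Without Kcnj8 and Abcc9, which were each seen in at least 25% of the PyMT-N cells, the sums were 261.6 and 15.9 CPM. The 5 immune markers, all seen in both, summed to 24.9 CPM in the former and 319.9 CPM in the latter. Results are therefore also given after removal of cells with such UMIs, where that changed a value. Cells were removed with at least 3 UMIs of the mural markers other than Kcnj8 and Abcc9, or at least 2 of the immune markers. Cells with fewer such UMIs were kept.

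Of the 3 connexins, Gja1 alone was found in all 4 classes of both libraries. In PyMT-N its level was 338.9 CPM in blood endothelial cells (95% interval 329.7 to 348.4), 175 in tumor cells (172 to 178), 151 in lymphatic cells (137 to 166) and 91.9 in fibroblasts (76.4 to 109.6). No neighbours in that order had overlapping intervals. These and all following intervals are exact Poisson or binomial intervals and cover counting error only, not the spread between tumors. Intervals of levels and of log2 ratios pool UMIs over cells, so that the spread between cells is not in them either. In PyMT-M the level was 222 CPM in blood endothelial cells (206 to 239), 146 in lymphatic cells (77.8 to 249.8), 78.1 in fibroblasts (50.6 to 115) and 27.2 in tumor cells (26.25 to 28.1). The intervals of lymphatic cells, of which there were 20, overlapped those of both neighbours in the PyMT-M order. Of the 4 classes, tumor cells had the largest difference in Gja1 between the libraries, with a log2 ratio of PyMT-M to PyMT-N of -2.69 (-2.74 to -2.63).

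Gja4 was nearly absent from tumor cells. It stood at 75.8 CPM in blood endothelial cells of PyMT-M (66.7 to 85.8, 250 UMIs) and at 50.3 in those of PyMT-N (46.8 to 54.0, 752 UMIs). Tumor cells held 0.307 and 0.279 CPM, which is 247 and 181 times less. Lymphatic cells of PyMT-N held 37.7 CPM of Gja4 (30.9 to 45.6), below blood endothelial cells, and the 20 lymphatic cells of PyMT-M held 168.5 CPM from 15 UMIs (94.3 to 278). Fibroblasts had 4 UMIs of Gja4 in PyMT-M and none in PyMT-N, where the level was at least 22.6-fold lower than in blood endothelial cells against the limit of 3 counts in the class.

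Gja5 was found in blood endothelial cells and hardly in the other classes. Its level in blood endothelial cells was 16.4 CPM for PyMT-M (12.3 to 21.4, 54 UMIs) and 11.2 CPM for PyMT-N (9.60 to 13.1, 168 UMIs). No UMI of Gja5 was found in any of the 207 lymphatic cells of PyMT-N, which by the limit of 3 counts allows up to 1.45% of cells to have a UMI and puts the level at least 10.6-fold below that of blood endothelial cells. The 20 lymphatic cells of PyMT-M also had none, but the limit of 3 counts there, 33.7 CPM, lies above the blood endothelial level, so that a difference was not detectable at this depth. Tumor cells held 0.03315 CPM from 4 UMIs in PyMT-M, 494 times less than blood endothelial cells, and 0.438 CPM from 33 UMIs in PyMT-N, 25.7 times less. Fibroblasts held no UMI in PyMT-M and 1 in PyMT-N.

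Bmx was sparse in every class. Blood endothelial cells held 3.94 CPM of it in the PyMT-M library (2.10 to 6.74, 13 UMIs) and 4.08 in the other (3.12 to 5.24, 61 UMIs). Lymphatic cells of PyMT-N held more, at 10.2 CPM (6.85 to 14.7, 29 UMIs), a log2 ratio over blood endothelial cells of 1.33 (0.635 to 1.99). Tumor cells held 3 and 6 UMIs in all, and fibroblasts held none. The log2 ratio of tumor over blood endothelial cells of PyMT-M, with 3 UMIs in the tumor cells, was -7.31 (-9.76 to -5.445).

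Fbln5 was found in fibroblasts as well as endothelium, and in tumor cells of PyMT-N. Its level was 82.5 CPM in blood endothelial cells of PyMT-M (73.0 to 92.9) and 77.1 in those of PyMT-N (72.7 to 81.6). In PyMT-N it was higher in lymphatic cells, at 135.8 CPM (122.6 to 150.1) with a log2 ratio of 0.82 (0.65 to 0.985), and slightly higher in fibroblasts, at 94.1 CPM (78.5 to 112) with a log2 ratio of 0.29 (0.01 to 0.55). PyMT-M lymphatic cells held 123.6 CPM (61.7 to 221) and fibroblasts 59.4 (35.8 to 92.7), both overlapping the blood endothelial interval. The sharpest contrast was among tumor cells, where 1608 UMIs (21.3 CPM) were counted in PyMT-N and 2 UMIs in PyMT-M, a log2 ratio of PyMT-M to PyMT-N of -10.33 (-13.38 to -8.475). In PyMT-N 21.5% of tumor cells had an Fbln5 UMI.

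Set against blood endothelial cells, all 5 members were at least 2-fold lower in tumor cells of PyMT-M and 4 of 5 in those of PyMT-N, the exception being Gja1 at a log2 ratio of -0.95 (-1 to -0.91). Of all genes with at least 200 UMIs in the 2 classes together, 19.3% in PyMT-M and 17.4% in PyMT-N were that much lower. With that minimum applied to the members too, 3 of 3 and 3 of 4 were at least 2-fold lower. Blood endothelial cells were themselves selected by endothelial transcripts and by few tumor transcripts. In lymphatic cells of PyMT-N, 2 of 5 members, Gja1 and Gja5, were at least 2-fold lower than in blood endothelial cells, against 8.68% of all genes, and 1 of the 3 members over the minimum was.

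**Figure D1:**
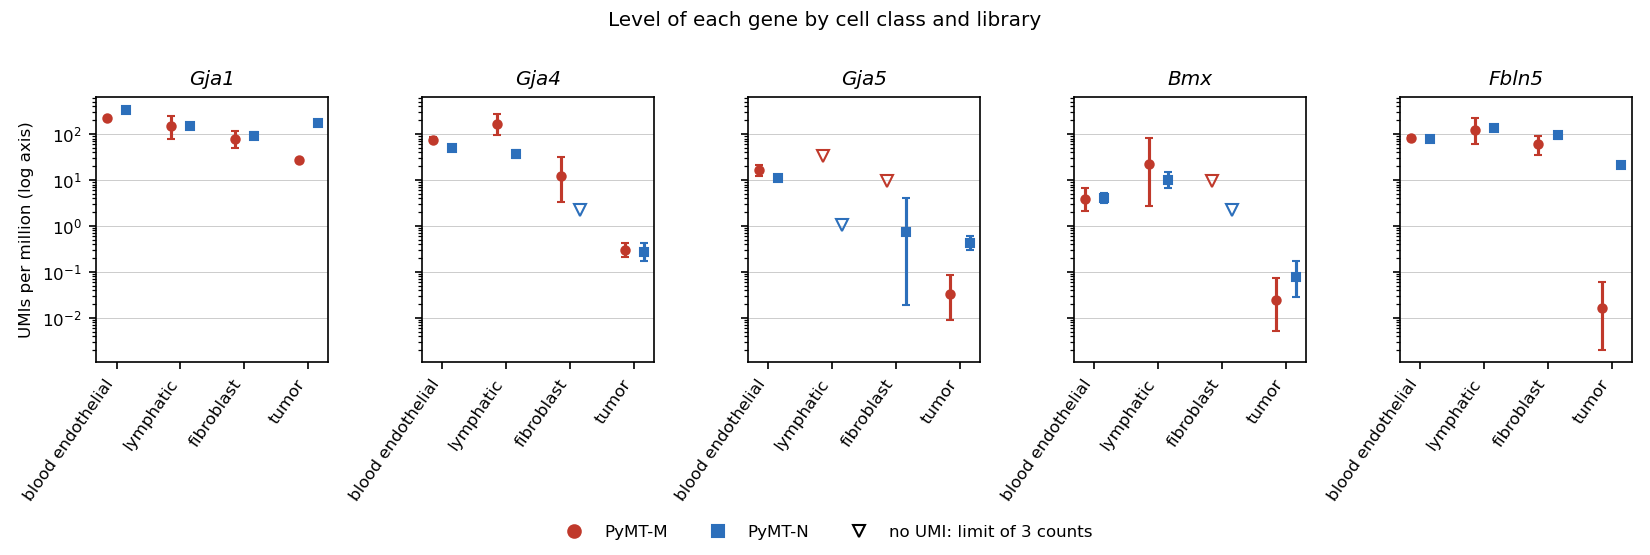
UMIs per 1000000 (logarithmic axis) of each gene in 4 cell classes of PyMT-M (circles) and PyMT-N (squares), with exact 95% Poisson intervals; open triangles mark classes with no UMI at the limit of 3 counts. Gja4 and Gja5 fall below 1 CPM in tumor cells of both libraries, whereas Gja1 stays at 27.2 and 175 and Fbln5 is at 0.0166 and 21.3.

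Between all blood endothelial cells of the libraries, no member had a ratio of 2-fold or more, though the interval of Bmx reached past 2-fold lower in PyMT-M. Among the 8546 genes with at least 200 UMIs over both, 2.5% were at least 2-fold higher in PyMT-M and 4.18% at least 2-fold lower, and 4 of the 5 members were in that set, Bmx with its 74 UMIs being the exception. Gja1 was lower in PyMT-M, with a log2 ratio of -0.61 (-0.72 to -0.50). This value kept its direction in each of the 12 other ways of choosing cells or scaling, between -0.69 and -0.51. Bmx gave -0.05 (-1.04 to 0.83) and Fbln5 0.10 (-0.10 to 0.29), both with an interval across 0.

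Gja4 and Gja5 were higher in PyMT-M over all blood endothelial cells, but the ratios were near 0 in narrower ranges of depth. The log2 ratio over all cells was 0.59 (0.38 to 0.80) for Gja4 and 0.54 (0.07 to 0.99) for Gja5. With only the cells of 3000 to 20000 UMIs, of which there were 480 in PyMT-M and 892 in PyMT-N, it was 0.12 (-0.13 to 0.36) and 0.03 (-0.47 to 0.52), and that of Fbln5 was -0.26 (-0.48 to -0.05). With only cells whose number of detected genes lay within 2-fold of the median of all barcodes of the library, 310 and 1035 cells, Gja4 gave 0.08 (-0.20 to 0.36), Gja5 turned to -0.17 (-0.88 to 0.48), Bmx came to -1.68 (-4 to -0.07) and Fbln5 to -0.43 (-0.70 to -0.175). Neither subset matched the depths, whose medians were 5684 and 11604 UMIs in the first and 7050 and 12896 in the second. The 107 PyMT-M cells under 3000 UMIs held 68 of its 250 Gja4 UMIs, at 290 CPM (225 to 367), against 60.2 CPM (51.8 to 69.6) in its cells of 3000 to 20000 UMIs. They also held 213 CPM of Fbln5 (158 to 281) against 73.5 (64.1 to 83.8), and 34.1 CPM of Gja5 from 8 UMIs (14.7 to 67.2). Among blood endothelial cells of PyMT-N, cells over 20000 UMIs held less Gja5, at 3.065 CPM (1.68 to 5.14), than those of 3000 to 20000 UMIs, at 14.9 (12.6 to 17.4). The depth of the cells and the library cannot be told apart for the ratios of these 2 connexins over all cells. Without the cells removed for mural UMIs, 14 of PyMT-M and 15 of PyMT-N, the ratio was 0.53 (0.32 to 0.75) for Gja4 and 0.56 (0.06 to 1.035) for Gja5. The cells kept still held 13.4 and 8.17 CPM of mural markers other than Kcnj8 and Abcc9.

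**Figure D2:**
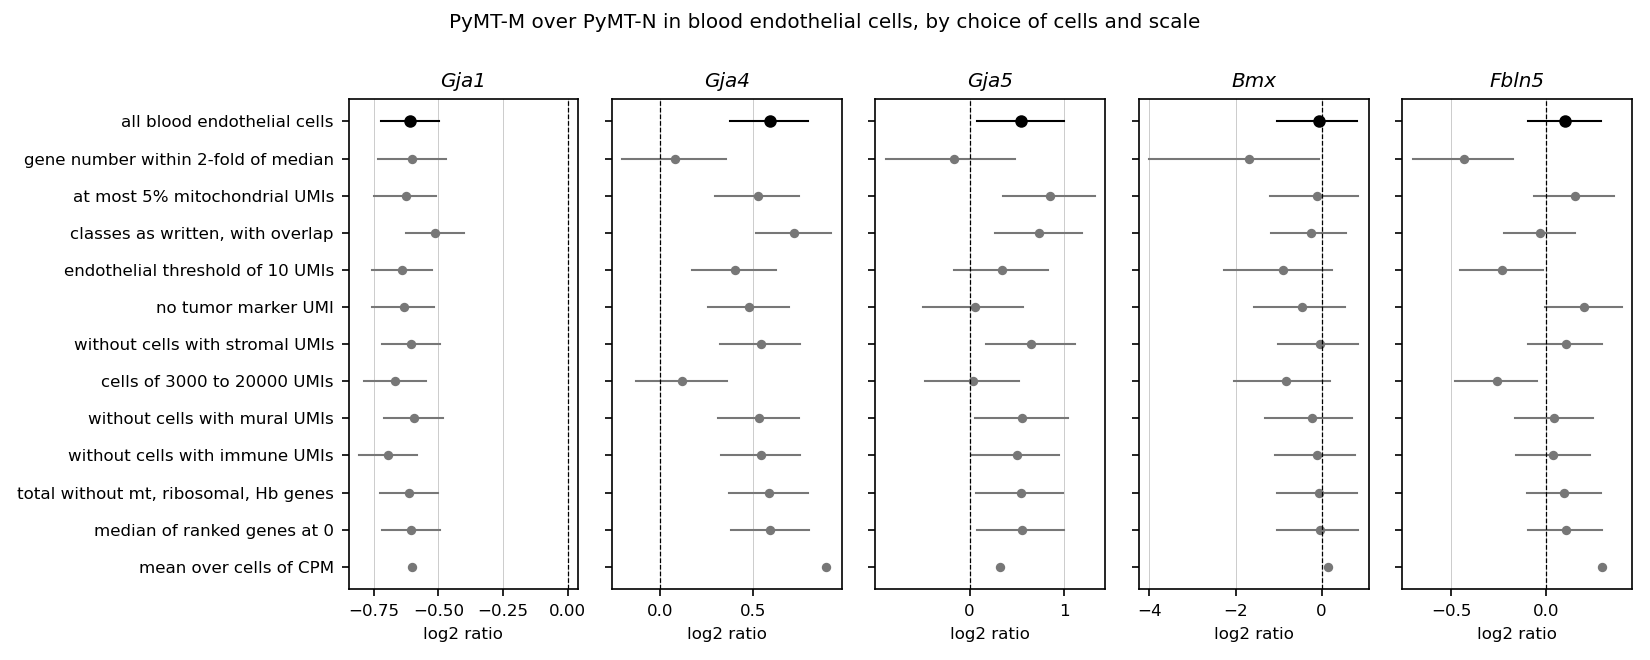
Log2 ratio of PyMT-M to PyMT-N in blood endothelial cells for each gene (each panel with its own horizontal scale), with all cells (black) and under 12 other choices of cells or scale (grey); lines are exact 95% intervals, and the mean over cells has none. Gja1 lies between -0.69 and -0.51 under every choice, and Gja4 falls from 0.59 to 0.12 with cells of 3000 to 20000 UMIs.

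The share of blood endothelial cells with a UMI of Gja4 or Gja5 differed between the libraries by less than counting error after thinning, which left shallower cells out. Gja4 was seen in 61 of 589 cells of PyMT-M (10.4%, 8.015 to 13.1) and in 143 of 1069 cells of PyMT-N (13.4%, 11.4 to 15.6). After each cell was thinned to 3000 UMIs, which left out the 107 and 7 shallower cells, the shares were 7.05% (4.93 to 9.72) and 6.78% (5.34 to 8.46). Of the 107 PyMT-M cells left out, 17 had Gja4 (15.9%), against 9.17% of its cells of 3000 to 20000 UMIs before thinning. Gja5 was seen in 16 cells (2.72%) and 27 cells (2.53%), and after thinning in 2.075% (0.999 to 3.78) and 1.88% (1.15 to 2.89). For both genes the thinned shares of the libraries lay within each other's interval. Tumor cells, set beside these as a background, had medians of 23724.5 and 20770 UMIs. Their rule leaves out any cell with a UMI of Pecam1 or Flt1, so that they are not an independent background. After thinning, their share was 0.123% and 0.0607% for Gja4, and 0.02045% and 0.03035% for Gja5, from 1 cell each. Their shares without thinning were 0.573% and 0.607% for Gja4 and 0.0818% and 0.849% for Gja5.

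Gja1 and Fbln5 were seen in larger shares of blood endothelial cells, and Bmx in few. Gja1 was seen in 57.6% of blood endothelial cells of PyMT-M and 86.1% of those of PyMT-N, and after thinning in 44.6% (40.1 to 49.2) and 57.0% (53.9 to 59.97). Its share in tumor cells was 43.6% and 86.6%, and after thinning 8.12% and 36.4%. Fbln5 was seen in 23.4% and 43.4% of blood endothelial cells, after thinning in 13.9% (10.9 to 17.3) and 18.8% (16.5 to 21.3), while 0 of 4889 thinned tumor cells of PyMT-M and 6.04% of those of PyMT-N had a UMI. By the limit of 3 counts, this 0 allows up to 0.0614% of cells to have a UMI at that depth. Bmx was seen in 9 cells (1.53%) and 42 cells (3.93%), and after thinning in 0.830% (0.227 to 2.11) and 1.88% (1.15 to 2.89), with 0 of 4889 and 1 of 3295 thinned tumor cells. The thinned shares of Gja1 had intervals apart between the libraries, and those of Fbln5 and Bmx had intervals that overlapped.

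A handful of cells held most UMIs of the arterial connexins. In PyMT-M 4 cells held at least 50% of all Gja5 UMIs and in PyMT-N 7 cells did, with up to 9 and 19 UMIs in a cell. The highest cell held 16.7% of the Gja5 UMIs of PyMT-M and 11.3% of those of PyMT-N. Gja4 had at least 50% of its UMIs in 12 and 22 cells, with up to 21 and 45 UMIs in a cell. Gja1 needed 82 and 207 cells to reach that share. The cells with a UMI numbered 16 and 27 for Gja5, 61 and 143 for Gja4 and 339 and 920 for Gja1. The contrast with Gja1 thus goes with how many cells had a UMI, and does not show that UMIs were more concentrated among those cells.

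Nearly all cells with Gja5 also had Gja4. In PyMT-M 14 of the 16 Gja5 cells had a Gja4 UMI (87.5%, 61.65 to 98.45), against 47 of 573 cells without Gja5 (8.20%, 6.09 to 10.8). In PyMT-N 25 of the 27 had Gja4 (92.6%, 75.7 to 99.1), against 118 of 1042 (11.3%, 9.46 to 13.4). The reverse did not hold, since Gja5 was seen in 22.95% of the Gja4 cells of PyMT-M (13.15 to 35.5) and 17.5% of those of PyMT-N (11.6 to 24.7), against 0.379% and 0.216% of cells without Gja4. After thinning to 3000 UMIs, 7 of 10 Gja5 cells of PyMT-M (34.75% to 93.3%) and 15 of 20 of PyMT-N (50.9% to 91.3%) had Gja4, against 5.72% and 5.47% of the others. Without the cells removed for mural or immune UMIs, 9 of 9 and 14 of 17 did. The remaining cells were thinned in a new random draw, so that removal and draw cannot be told apart here. Gja4 thus marked a wider set of blood endothelial cells that took in almost every cell with Gja5. Cells with Gja5 were not deeper than the others, with medians of 3752 UMIs against 5313 in cells with neither connexin for PyMT-M and 11437 against 12564 for PyMT-N.

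**Figure D3:**
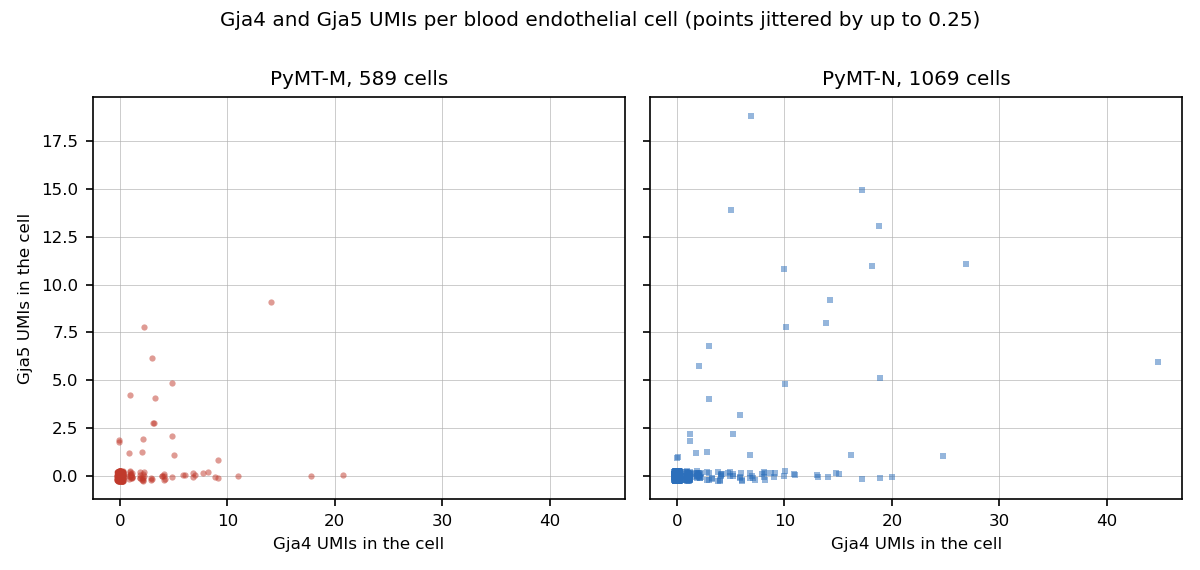
Gja4 UMIs (horizontal) against Gja5 UMIs (vertical) in each blood endothelial cell of PyMT-M (left, 589 cells) and PyMT-N (right, 1069 cells), each point being 1 cell shifted at random so that points do not hide each other. Cells with Gja5 lie almost all to the right of 0 Gja4 UMIs, whereas many cells with Gja4 lie on the horizontal axis.

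The other members were shared less evenly with Gja5. Bmx was seen in 4 of 16 Gja5 cells of PyMT-M (25%, 7.27 to 52.4) and 12 of 27 of PyMT-N (44.4%, 25.5 to 64.7), against 0.873% and 2.88% of cells without Gja5. Fbln5 was seen in 11 of 16 (68.75%, 41.3 to 89.0) against 22.2% in PyMT-M. In PyMT-N it was seen in 15 of 27 (55.6%, 35.3 to 74.5) against 43.1%, and the interval took in the lower share. This contrast between the libraries did not hold after thinning. Fbln5 was then in 4 of 10 Gja5 cells of PyMT-M (12.2% to 73.8%) against 13.35%, which that interval took in. In PyMT-N it was in 8 of 20 (19.1% to 63.95%) against 18.4% (16.1 to 20.9), with intervals that overlapped. Gja1 was seen in 8 of 16 Gja5 cells (50%) against 57.8% in PyMT-M and in 24 of 27 (88.9%) against 86.0% in PyMT-N. The intervals of these shares, 24.65% to 75.35% against 53.6% to 61.85% and 70.8% to 97.65% against 83.7% to 88.0%, overlapped in each library.

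**Figure D4:**
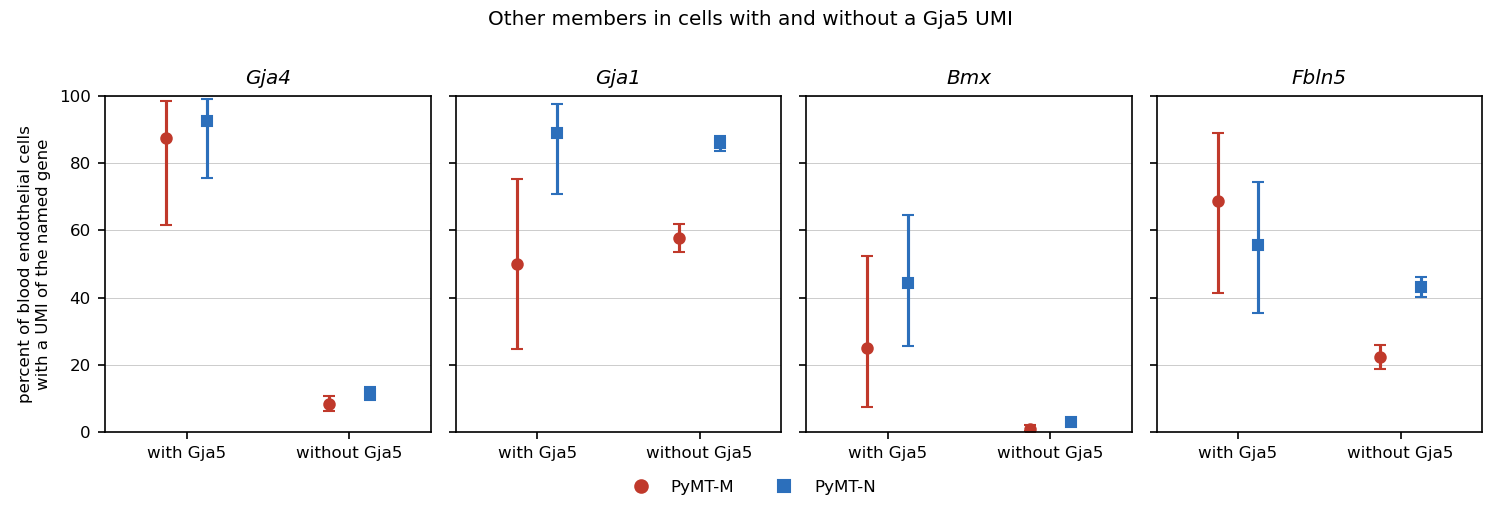
Percent of blood endothelial cells with a UMI of Gja4, Gja1, Bmx or Fbln5 among cells with and without a Gja5 UMI, in PyMT-M (circles, 16 cells with Gja5) and PyMT-N (squares, 27 cells with Gja5), with exact 95% binomial intervals. Gja4 is at 87.5% and 92.6% with Gja5 and at 8.20% and 11.3% without, whereas Gja1 has overlapping intervals in each library.

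The cells with arterial connexins carried other arterial transcripts. The summed level of a list of 10 arterial genes (Hey1, Hey2, Efnb2, Sox17, Sema3g, Dll4, Jag1, Jag2, Gkn3 and Unc5b, which act in Notch and guidance signaling or mark arteries) was 2583 CPM in Gja5 cells of PyMT-M (2229 to 2978) and 2427 in those of PyMT-N (2261 to 2602). Cells with Gja4 but no Gja5 held 1563 (1404 to 1735, 47 cells) and 1454 CPM (1400 to 1510, 118 cells). Cells with neither held 528 (502 to 554, 526 cells) and 717 CPM (702 to 732, 924 cells). The order Gja5, Gja4 without Gja5, neither was the same in both libraries, with intervals apart at each step. Cells with Gja4 but no Gja5 had medians of 4158 and 13682.5 UMIs. Efnb2, the arterial ephrin ligand, was at 639 and 744.5 CPM in Gja5 cells against 83.3 and 148 in cells with neither, and Hey1, a Notch target, at 245 and 233 against 19.7 and 35.1.

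Markers of other states and cells were measured in the same 3 groups. Ackr1, a marker of venules, had no UMI in cells with Gja4 or Gja5 of either library and was at 63.0 and 24.1 CPM in cells with neither. Vwf, the von Willebrand factor, was at 544 CPM in Gja5 cells of PyMT-M against 215 in cells with neither, and at 1446 against 558 in PyMT-N. A venous list that holds Ackr1, Vwf and other markers was not lower in sum in Gja5 cells. It stood at 938 CPM (730 to 1187) against 897 in cells with neither in PyMT-M, and at 2025 (1874 to 2186) against 1174 in PyMT-N. Cells with Gja4 but no Gja5 held 542 and 1198 CPM of it. The 10 mural markers were at 2070 CPM in the PyMT-M cells with Gja4 but no Gja5 (1886 to 2266) against 165 in cells with neither. Of these UMIs, the 196 of Acta2 lay in 2 of the 47 cells and the 76 of Rgs5 in 2 as well. In PyMT-N the same group held 323 CPM of mural markers against 271 in cells with neither. The 5 immune markers had no UMI in cells with Gja4 or Gja5 of PyMT-M, and in PyMT-N they stood at 214.5 CPM in Gja5 cells, 5.37 in cells with Gja4 but no Gja5 and 368.5 in cells with neither. The part of mural and immune markers in the levels of these 3 groups was not tested. Library ratios of Gja4 and Gja5 without the cells removed for mural UMIs are given above. Their co-detection without the cells removed for mural or immune UMIs is given above as well.

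The members were then followed along 6 lists of genes that describe states of blood endothelial cells, each time comparing the 25% of cells with the highest summed share of the list against all other blood endothelial cells of the library. No list contains a member. The top 25% is a range of cells and not a type, and 20 to 46 cells of PyMT-M and 51 to 137 cells of PyMT-N lay within 10% of its limit.

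Gja4 and Gja5 were concentrated in the arterial top 25%, and Bmx was higher there too. The arterial top 25% held 76.8% of all Gja4 UMIs of PyMT-M and 76.1% of those of PyMT-N, and 81.5% and 94.05% of the Gja5 UMIs. For Gja4, the level was 311 against 21.6 CPM in PyMT-M, a log2 ratio of 3.84 (3.41 to 4.29), and 165 against 15.7 in the other library, where the ratio was 3.39 (3.15 to 3.64). The ratio of Gja5 was 4.25 (3.24 to 5.41) and 5.705 (4.79 to 6.79). Bmx gave 4.58 (2.38 to 7.79) from 13 UMIs of PyMT-M and 1.96 (1.19 to 2.74) for PyMT-N. The arterial top 25% held 84.6% of the Bmx UMIs of PyMT-M and 54.1% of those of PyMT-N. In PyMT-N the venous top 25% held more of them, at 70.5%. Gja1 and Fbln5 were raised less, Gja1 by 0.94 (0.71 to 1.17) and 0.75 (0.66 to 0.83) and Fbln5 by 1.08 (0.69 to 1.45) and 0.55 (0.37 to 0.73). In all, 4 of 5 members were at least 2-fold higher in the arterial top 25% of PyMT-M and 3 of 5 in that of PyMT-N. Of all genes with at least 200 UMIs in the cells compared, 2.14% and 1.24% were that much higher, and of the 3 members over this minimum 2 and 1 were. The arterial top 25% of PyMT-M was shallower than the other cells, with a median of 3740 against 5570 UMIs, and that of PyMT-N was alike, with 12447 against 12832. With cells of 3000 to 20000 UMIs, the ratio of Gja4 was 3.18 (2.71 to 3.66) in PyMT-M and 3.755 (3.45 to 4.07) in PyMT-N, that of Gja5 3.82 (2.78 to 4.99) and 6.82 (5.44 to 8.72), and that of Fbln5 in PyMT-M 0.70 (0.26 to 1.12), below 2-fold.

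Along the tip list, which describes sprouting cells (Apln, Esm1, Angpt2 and others), the connexins parted. Gja1 was higher in the tip top 25%, by 0.58 (0.36 to 0.80) in PyMT-M and 0.51 (0.42 to 0.59) in PyMT-N, while Gja4 was lower, at -1.11 (-1.67 to -0.59) and -1.60 (-1.98 to -1.24), and so was Gja5, at -2.14 (-4.07 to -0.69) and -2.84 (-4.18 to -1.76). Along the cycling list, Gja1 was lower at -0.48 and -0.35, Gja4 at -1.24 and -1.27 and Fbln5 at -1.19 and -0.76, each with an interval below 0. Gja5 in cycling cells gave -0.31 (-1.27 to 0.59) in PyMT-M and -1.23 (-1.92 to -0.60) in PyMT-N. Gja1, Gja4 and Fbln5 were thus lower in the cells with the most cell cycle transcripts in both libraries. These cells were also deeper than the others, with medians of 6769 against 4622 UMIs in PyMT-M and 13665 against 12216 in PyMT-N. In PyMT-M, Gja4 and Fbln5 were higher in cells under 3000 UMIs, as given above. The part of depth in these ratios was not tested.

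Fbln5 followed the venous list. Its level in the venous top 25% was 165 against 62.25 CPM in PyMT-M and 143 against 60.6 in PyMT-N, log2 ratios of 1.41 (1.04 to 1.77) and 1.24 (1.07 to 1.42). These ratios were larger than those of Fbln5 in the arterial top 25%, 1.08 and 0.55, though the intervals overlapped in PyMT-M. The venous top 25% was shallower than the other cells, with medians of 4043 against 5543 UMIs in PyMT-M and 10190 against 13490.5 in PyMT-N. The part of this depth in the ratios was not tested. Gja5 and Bmx were also higher in the venous top 25% of PyMT-N, by 4.04 (3.48 to 4.64) and 3.26 (2.44 to 4.15), but not in that of PyMT-M, at 0.225 (-0.84 to 1.18) and -0.43 (-3.64 to 1.77). The venous list contains Vwf, whose level in Gja5 cells is given above. With Vwf left out of the list, the ratios of PyMT-N were 1.63 (1.18 to 2.09) for Gja5, 1.67 (0.89 to 2.44) for Bmx, 0.01 (-0.25 to 0.27) for Gja4 in place of 0.93, and 0.96 (0.78 to 1.14) for Fbln5.

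Along the capillary and interferon lists the libraries were less alike. Gja4 in the capillary top 25% was higher in PyMT-M, at 0.75 (0.36 to 1.14), and lower in PyMT-N, at -0.58 (-0.87 to -0.31), a difference between libraries that was not tested. Gja5 had 2 of its 168 UMIs in the capillary top 25% of PyMT-N, which put its ratio at -4.69 (-7.745 to -2.81), and 15 of 54 in that of PyMT-M, at 0.31 (-0.66 to 1.20). Fbln5 was at 0.24 (-0.17 to 0.63) and 0.70 (0.52 to 0.88). Along the interferon list no member passed a log2 ratio of 1 with an interval above 0, and Gja5 stood at 0.74 (-0.15 to 1.58) and 0.72 (0.22 to 1.19).

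**Figure D5:**
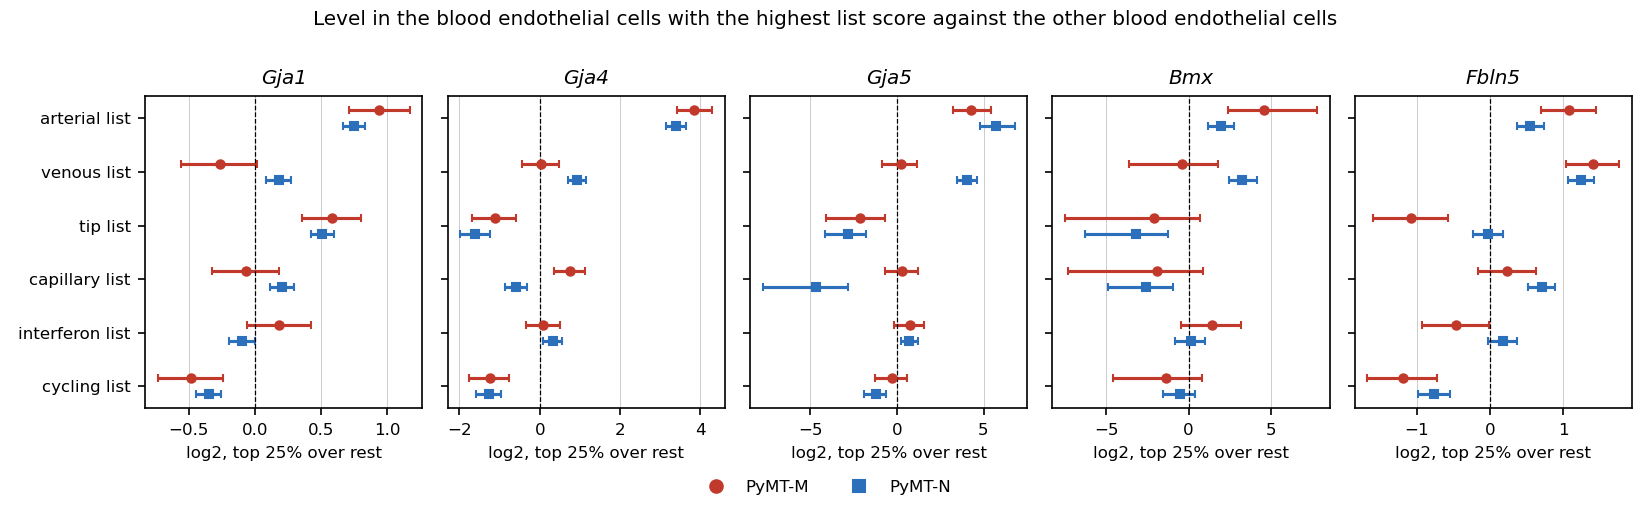
Log2 ratio of each gene between the 25% of blood endothelial cells with the highest level of a list and the other blood endothelial cells, for 6 lists, in PyMT-M (circles) and PyMT-N (squares), with exact 95% intervals and a horizontal scale for each panel. Gja4, Gja5 and Bmx lie above 1 along the arterial list in both libraries, and Fbln5 is highest along the venous list, at 1.41 and 1.24.

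For each member, the 5 genes most raised in blood endothelial cells with the member over those without it were taken, by the lower of the ratios of the libraries after 5 CPM was added to each level. These ratios describe likeness over 2 libraries and nothing was tested. For Gja5 they were Stmn2, a stathmin that binds tubulin, at log2 ratios of 4.50 and 3.87, Htra1, a secreted serine protease, at 4.15 and 3.68, Sema3g, a secreted semaphorin of arteries, at 4.01 and 3.515, Slc35f1 at 3.29 and 3.48, and Slc45a4 at 3.89 and 3.09. Stmn2 stood at 585 CPM in Gja5 cells of PyMT-M against 21.1 in the others, and at 368 against 20.45 in PyMT-N. For Bmx they were Mgp, the matrix Gla protein, at 5.12 and 3.27, Htra1 at 4.04 and 3.16, Stmn2 at 4.36 and 3.155, Fbln2 at 2.56 and 3.12, and Sema3g at 3.45 and 2.44. Htra1, Stmn2 and Sema3g were thus named for both Gja5 and Bmx, which share 4 cells of PyMT-M and 12 of PyMT-N.

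For Gja4 the genes were Nts, the precursor of neurotensin, at 2.71 and 3.305, Cxcl12, a chemokine, at 2.655 and 2.48, Sema3g at 3.19 and 2.12, Lama3, a laminin chain, at 2.54 and 1.95, and Slc45a4 at 2.87 and 1.88. Sema3g and Slc45a4 were on the lists of both Gja4 and Gja5. Those of Gja1 were Kcnj2, an inward rectifier potassium channel, at 1.92 and 2.05, Gal, the galanin precursor, at 1.55 and 2.02, Celf4 at 1.54 and 1.87, Kcne3, a potassium channel subunit, at 1.32 and 1.87, and 9230102K24Rik at 1.37 and 1.29. Those of Fbln5 were Fbln2, another fibulin, at 2.11 and 1.58, Ackr1 at 1.74 and 1.23, Selp, the adhesion molecule P-selectin, at 1.14 and 1.01, Rgs6 at 1.41 and 0.92, and Edn1, the endothelin precursor, at 0.90 and 1.00. None of the 5 genes of Gja1 was on the list of another member.

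The other genes of the connexin family were few in blood endothelial cells. Of 23 connexins and pannexins, 7 had a UMI there, 4 had at least 200 over both libraries, and none of these 4, which are Gja1, Gja4, Gja5 and Gjc1, was 2-fold higher or lower in PyMT-M, with a median log2 ratio of 0.57 against -0.0041 over all 8546 genes. Gjc1 was at 18.5 CPM against 10.2 (PyMT-M against PyMT-N), with a ratio on the log2 scale of 0.86 (0.41 to 1.30). Panx1, a pannexin that forms channels in the membrane of single cells, was at 5.46 against 9.50 CPM, or -0.80 (-1.595 to -0.09).

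Of 26 other arterial genes, 23 had at least 200 UMIs, and 2 of them were at least 2-fold higher and 2 at least 2-fold lower in PyMT-M, with a median of 0.03. The highest were Cxcl12, at 173 against 25.75 CPM (2.75, 2.56 to 2.94), Edn1, at 58.2 against 14.4 (2.02, 1.73 to 2.30), and Eln, the elastin gene, at 21.8 against 11.5 (0.92, 0.51 to 1.33). The lowest were Mgp, at 23.0 against 73.6 (-1.675, -2.03 to -1.34), Unc5b, a netrin receptor of tip and arterial cells, at 69.4 against 157 (-1.175, -1.38 to -0.98), and Efnb2, at 115.5 against 196.5 (-0.77, -0.92 to -0.61). Of the 23, 9 had an interval above 0 and 10 an interval below 0, where 1995 and 2037 of all 8546 genes did, and the members' own ratios of -0.61 to 0.59 lay inside their range.

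Of 18 elastic fiber genes, the group to which Fbln5 belongs by function, 4 had at least 200 UMIs. Fbln2 was at 143 CPM in PyMT-M against 34.5 in PyMT-N (2.055, 1.87 to 2.24), Eln is given above, Ltbp4, a latent TGF-beta binding protein, was at 126 against 107 (0.24, 0.08 to 0.40), and Emilin1, a glycoprotein of elastic fibers, at 24.6 against 26.3 (-0.10, -0.46 to 0.25). Fbln2 alone of these 4 was at least 2-fold higher, and none was 2-fold lower, with a median of 0.58. Of the 10 mural markers, 5 had at least 200 UMIs, with a median of 3.01. Acta2 (6.08), Rgs5 (4.12) and Tagln (3.01) were higher in PyMT-M, and Kcnj8 (-3.64) and Abcc9 (-2.46), a pair of potassium channel subunits, were lower. The 3 higher ones lay in few cells. Acta2 was seen in 3.565% of PyMT-M and 2.34% of PyMT-N cells, Rgs5 in 1.87% and 3.65%, and Tagln in 3.905% and 3.46%. Without the 14 PyMT-M cells removed for mural UMIs, the sum without Kcnj8 and Abcc9 fell from 261.6 to 13.4 CPM.

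Lymphatic cells with and without Gja4 were compared for a few lymphatic genes, chosen after values were seen, and not all of these had the same direction. Foxc2, Cldn11, Gata2 and Prox1 had higher levels in the Gja4 cells of both libraries, some with overlapping intervals. Ccl21a was lower there in both, and Itga9 and Lyve1 changed direction between the libraries. Of the 207 lymphatic cells of PyMT-N, 36 had a Gja4 UMI (17.4%, 12.5 to 23.25). Foxc2, a transcription factor of lymphatic valves, stood at 67.45 CPM in these cells (45.2 to 96.9) against 6.24 in the others (3.49 to 10.3), and Cldn11, a claudin, at 53.5 (33.9 to 80.3) against 4.16 (1.99 to 7.645). Bmx was also higher, at 32.6 CPM (17.8 to 54.6) against 6.24 (3.49 to 10.3), and was seen in 11 of the 36 cells against 12 of the other 171. Gata2, another transcription factor known in valves, had overlapping intervals, at 39.5 (23.0 to 63.3) against 22.9 (17.2 to 29.8). Itga9, an integrin chain known in valves, was lower, at 377 (321 to 439.5) against 516 (488 to 545), and Lyve1, a receptor known in lymphatic capillaries, was higher, at 628 (555 to 707.5) against 426 (400.0 to 453). The 20 lymphatic cells of PyMT-M, 6 of them with Gja4, had 3 UMIs of Foxc2 in the Gja4 cells and 2 in the other 14, and 4 against 2 UMIs of Cldn11, with overlapping intervals for both. Itga9 was there higher in the Gja4 cells, with 27 UMIs (964 CPM, 635 to 1402) against 18 (295 CPM, 175 to 466). Lyve1 was there lower in the Gja4 cells, with 2 UMIs (71.4 CPM, 8.65 to 257.9) against 127 (2082 CPM, 1736 to 2477). Prox1, a gene of the lymphatic rule, was higher in the Gja4 cells of both libraries. It stood at 1499 CPM (1081 to 2027) against 541 (372 to 760) in PyMT-M and at 912 (824 to 1007) against 666 (633 to 699) in PyMT-N.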

How the data were processed

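Single cells of 2 libraries were measured by 3′ droplet sequencing. The values the authors deposited are raw UMI counts for each gene in each barcode, whole numbers with no normalization, and the submitters' processing notes name Cell Ranger 8.0.0 and the build mm39. The count tables hold no coordinates, and promoters were taken from RefSeq on GRCm38.p6. Counts were read with Python 3.11.15, numpy 2.4.6, pandas 2.3.3 and scipy 1.17.1, and figures drawn with matplotlib 3.10.9.

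Barcodes with at least 200 genes and at most 10% mitochondrial UMIs were kept. A cell that met the lymphatic and the blood endothelial rule (8 in PyMT-M, 174 in PyMT-N) was counted as lymphatic, cells that met another pair of rules (13 and 9) were left out, and 1162 and 971 kept cells met none. No doublet caller was run. Levels are summed UMIs of a class per 1000000 UMIs of that class, with exact 95% Poisson intervals, shares have exact Clopper-Pearson intervals, and each log2 ratio has an exact interval conditional on the summed count. Since a group is 1 library, no p-value was computed. Shares of cells with a UMI were compared as deposited and after thinning each cell to 3000 UMIs at random, which leaves out shallower cells. The ratio was tested on simulated data, and the thinning was checked against the mean expected from the full counts of Gja1.

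The members, lists and comparisons were chosen with earlier results of these data known. Besides the members, the text names the 3 highest and 3 lowest genes of each list among those with at least 200 UMIs over both libraries and at least 10 in the lower, connexins and pannexins with at least 50 UMIs, and 5 companion genes per member. Genes of marker and state lists named beside a member, and those of lymphatic valves, are outside this rule.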

Additional observations from a re-analysis of the deposited data

Results flagged for a closer look

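A pair of contrasts went in opposite directions in the 2 libraries, with intervals on either side of 0, and in neither case was the difference between the libraries tested. The log2 ratio of Gja4 in the capillary top 25% over the other blood endothelial cells was 0.75 for PyMT-M against -0.58 for PyMT-N, and with cells of 3000 to 20000 UMIs it was 0.26 and -0.60. The log2 ratio of Gja4 in lymphatic over blood endothelial cells was 1.15 in PyMT-M and -0.41 in PyMT-N, the first resting on 15 UMIs in 6 of 20 cells.

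Kept cells that met no class rule were outside the comparisons. Some members had an interval there that lay wholly above that of the tumor cells of the same library. In PyMT-M the levels in these 1162 cells were 33.1 CPM for Gja1, 3.83 for Gja4, 0.396 for Gja5, 0.330 for Bmx and 3.83 for Fbln5. In PyMT-N the 971 such cells held 8.51 CPM of Gja4, 1.60 of Gja5 and 29.8 of Fbln5. Each of these levels lay below 50% of that in blood endothelial cells of the same library.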

How the results depend on the processing

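No paired analysis was possible because each group is 1 library. The alternatives without mural, immune or mural and immune cells and the venous list without Vwf were chosen after seeing the data. Of the values and counts that answer a comparison, 120 stayed within their interval or, for counts, within 1.5 times under the alternatives tried, 32 moved further and 1 turned (an interval that excluded 0, and then the other sign), and of the others 283 stayed, 53 moved and 5 turned. The cause was not tested.

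The log2 ratio of PyMT-M to PyMT-N, with gene numbers within 2-fold of the median, was 0.083 for Gja4, -0.17 for Gja5 (turned), -1.68 for Bmx and -0.43 for Fbln5. With 3000 to 20000 UMIs it was 0.12 for Gja4, 0.035 for Gja5 and -0.26 for Fbln5. As a mean over cells it was 0.89 for Gja4 and 0.29 for Fbln5, without any tumor marker UMI 0.051 for Gja5, and with an endothelial threshold of 10 UMIs -0.23 for Fbln5. These 3 negative ratios of Fbln5 had intervals below 0, where that over all cells, 0.10, had an interval across 0, so that they are counted as moved.

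Shares moved with depth. Thinned to 2000 and 5000 UMIs and not thinned, Gja1 was in 34.1%, 54.9% and 57.6% of PyMT-M cells and in 43.5%, 70.8% and 86.1% of PyMT-N cells. Fbln5 was in 19.6% and 23.4% of PyMT-M cells at 5000 UMIs and not thinned, and in 12.8%, 24.4% and 43.4% of PyMT-N cells at all 3. Gja4 was in 9.20% of PyMT-N cells at 5000 UMIs, and not thinned in 10.4% and 13.4%. Bmx was in 3.93% of PyMT-N cells not thinned. Gja5 cells with Gja4 came to 100% at 5000 UMIs (4 of 4 and 21 of 21) and to 92.6% not thinned in PyMT-N. In PyMT-M they came to 100% without the cells removed for mural or immune UMIs, after a new random thinning.

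With gene numbers within 2-fold of the median, 1 connexin was at least 2-fold higher and 4 arterial genes at least 2-fold lower in PyMT-M. With a minimum of 50 UMIs, 4 of 8 elastic fiber genes were at least 2-fold higher. The share of all genes that passed 2-fold was not computed under these settings, so that these counts have no background. In PyMT-N, Gja1 turned in the venous top 10% (-0.23), without Vwf (-0.17) and in the capillary top 10% (-0.0046), and Gja4 in the interferon top 10% (-0.65) and with 3000 to 20000 UMIs (-0.045). Depth limits Bmx and Gja5 most, with 13 and 54 UMIs in PyMT-M blood endothelial cells.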

Other observations

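Gjc1, a connexin, and Panx1 were also counted outside blood endothelium. In tumor cells Gjc1 stood at 0.584 CPM for PyMT-N against 14.45 CPM for PyMT-M, and Panx1 at 3.16 against 13.5 CPM. The 207 lymphatic cells of PyMT-N held 43.4 CPM of Gjc1, where blood endothelial cells of the same library held 10.2 CPM.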
